A study of Bos taurus with 21 samples.

Results

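The 68 miRNAs described here are the bovine miRNAs numbered from miR-2280 upward, out of 298 rows with a known miRNA name and 847 rows in all. They were chosen by name alone, and 5 high-numbered miRNAs for which earlier results of these data had shown shifts were kept out of the set (miR-2478, miR-12034, miR-2431-3p, miR-11987 and miR-11980). The libraries hold small RNA of extracellular vesicles (EVs), membrane-bound particles shed by cells, from the serum of 21 cows: 7 healthy cows, which served as controls, 7 with subclinical mastitis and 7 with clinical mastitis. Each library is 1 cow, and the labels give neither breed, age and lactation stage nor the pathogen. The set is read beside the 216 known miRNAs numbered below miR-2280.

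A miRNA is cut from a hairpin precursor, whose arms give the 5p and the 3p product, and is loaded into a protein complex that represses messenger RNAs with matching sites. Numbers are handed out in the order in which miRNAs are registered, and a miRNA found in several species usually keeps 1 number, so low numbers hold most of the deeply conserved families and high numbers hold many found so far in cattle or a few other species. Some high numbers are shared with other species, such as miR-3613 and miR-3120, which also exist in humans. Conservation, mature sequences and seeds were not analysed here, so "bovine-specific" is a label and not a result. EVs carry miRNAs from blood cells, liver, vessel lining and other tissues into serum, and a lower level of a miRNA in a library can come from fewer vesicles of 1 source or from less of it per vesicle, which cannot be told apart.

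The 21 libraries held 1371 to 34565 reads of known miRNAs each. Healthy libraries had 1371 to 5706 known reads, subclinical libraries 3187 to 28045 and clinical libraries 1386 to 34565, so depth moved with the condition. A level is given as the deposited signal, which is reads per 1000000 of a scaling total close to the library's known reads, and 1 read was worth between 29.6 and 750.8 units. Healthy 5 and healthy 7 stood apart for these miRNAs, as given below, and results that rest on them are set out with and without them. Over all libraries the neutrophil and platelet miRNAs miR-223 and miR-142 took 1.23 to 6.40% of known reads, the red cell miRNAs miR-451, miR-486 and miR-144 took 0.365 to 2.61%, the liver miRNAs miR-122, miR-192 and miR-885 took 0 to 3.11% and endothelial miR-126 took 3.11 to 38.6%. Mean shares of other cargo stood apart in subclinical cows: the liver miRNAs took 0.216 ± 0.344% in healthy, 1.51 ± 1.13% in subclinical and 0.107 ± 0.100% in clinical cows, and let-7 rows took 41.2 ± 3.0%, 29.3 ± 8.8% and 40.5 ± 8.4% (SD, n = 7 each). The part of these gaps in the values of the high-numbered miRNAs was not tested.

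Together the 68 miRNAs held 6078 reads, or 3.01% of all known reads, against 57.9% for the lower-numbered miRNAs and 38.5% for the 9 let-7 rows. Their share was 3.40 ± 1.43% in healthy, 2.80 ± 0.57% in subclinical and 3.23 ± 0.94% in clinical cows (mean ± SD, n = 7 each). Single libraries ran from 1.98 to 5.65%, and the 3 groups overlapped. The highest share was in healthy 5, at 5.65% (95% exact binomial interval 5.01 to 6.34%), followed by healthy 7 at 5.12% and clinical 5 at 4.72%. Without healthy 5 and healthy 7 the healthy mean was 2.61%, which lies below that of both mastitis groups and not above them; this alternative was chosen after seeing the data. No test was made of this sum, because the set was chosen with results known.

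**Figure D1:**
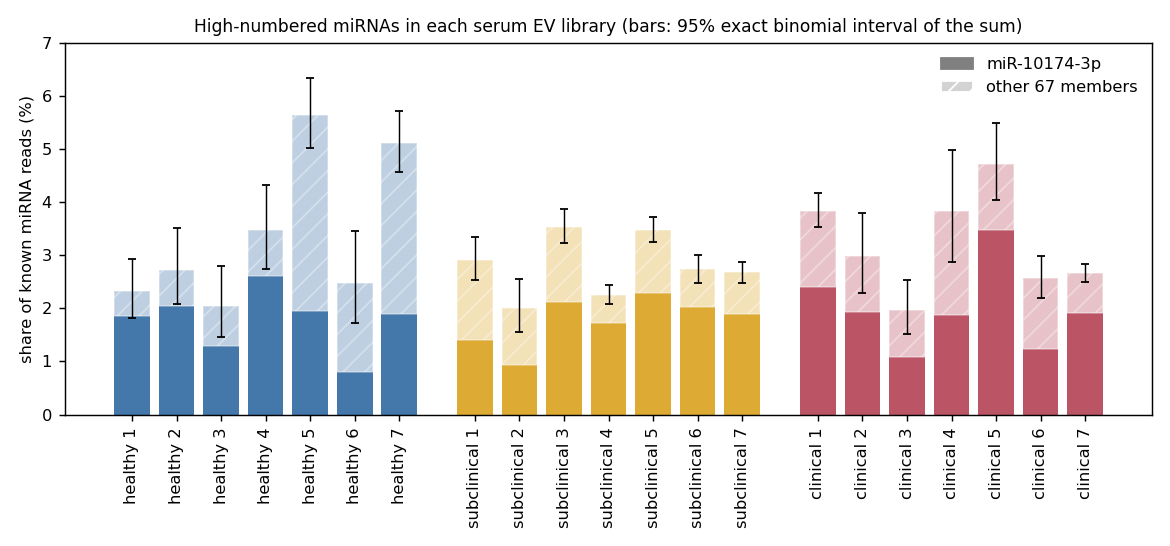
Share of known miRNA reads (%, vertical axis) taken by the 68 high-numbered miRNAs in each of the 21 libraries, split into miR-10174-3p (solid) and the other 67 (hatched); the error bar is the 95% exact binomial interval of the sum. Healthy 5 and healthy 7 stand highest, at 5.65% and 5.12%, through the hatched part, which is 3.70% and 3.23% there.

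One miRNA made up most of that share. miR-10174-3p alone had 3913 reads, 64.4% of the reads of all 68, and it was the only one of the 68 read in all 21 libraries. Among the 27 known miRNAs read in every library it ranked 8 by mean signal, between miR-223, a miRNA of neutrophils and platelets, and miR-423-5p. Its variation over the 21 cows was the lowest but 5 of those 27, with a coefficient of variation of 33.2%.

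In healthy cows the signal of miR-10174-3p ran from 8258 to 27430 with a median of 19507. In subclinical cows it ran from 9631 to 23527 with a median of 19378. In clinical cows it ran from 11137 to 36207 with a median of 19600. The medians of the 3 groups were nearly level and the ranges overlapped throughout, the lowest cow being healthy 6 and the highest clinical 5. As a share of known reads it took 1.78 ± 0.58% in healthy, 1.77 ± 0.47% in subclinical and 1.99 ± 0.80% in clinical cows (n = 7 each).

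The log2 change of miR-10174-3p from healthy to subclinical cows was 0.00 (95% interval −0.56 to 0.57, adjusted p = 0.995 by limma). From healthy to clinical cows it was 0.13 (−0.43 to 0.70, adjusted p = 0.967 by limma), and from subclinical to clinical cows 0.13 (−0.43 to 0.70, adjusted p = 0.878 by limma). edgeR on the whole reads recovered from the signal gave 0.58, 0.46 and −0.12 for the 3 comparisons, none past its threshold. These values hold relative to the other known miRNAs: with 1 scale over known and numbered rows together, the first change was 2.07, also short of the threshold (adjusted p = 0.114 by edgeR). The signal of the other arm of this hairpin was far lower, since miR-10174-5p had 7 reads, so that 99.8% of the reads from both arms were 3p (95% exact binomial interval 99.6 to 99.9%).

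Behind it came 16 miRNAs that passed the filter on low values, which asks for a signal of 1 or more in 7 or more libraries, for a total of 17 of the 68 (25.0%), against 100 of 216 lower-numbered miRNAs (46.3%). A miRNA that passes through 1 group alone had to be read mostly there, so these 17 do not stand for the whole set. The first 5 of the 68 by reads, miR-10174-3p, miR-6529a, miR-11976, miR-11972 and miR-2887, held 82.5% of the reads of the set. Of the next, 2 more had at least 100 reads.

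**Figure D2:**
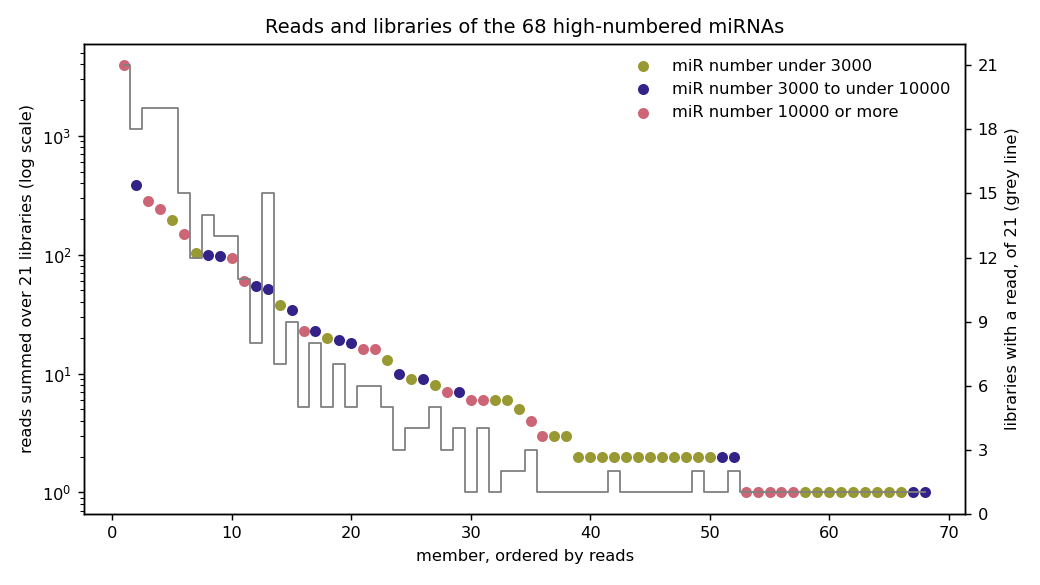
Reads summed over the 21 libraries (points, left axis, log scale) and the number of libraries with a read (grey line, right axis) for each of the 68 miRNAs, ordered by reads and coloured by the size of the miRNA number. miR-10174-3p has 3913 reads, the next has 382, and 33 have 3 reads or fewer.

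miR-6529a was the second most read, with 382 reads in 18 of 21 libraries. Its signal had a median of 557 in healthy (0 to 4144), 1610 in subclinical (0 to 5019) and 1362 in clinical cows (328 to 5523). It was read in every clinical cow but in 5 of 7 healthy and 6 of 7 subclinical ones, and its ranges overlapped almost fully. The log2 changes against healthy cows were 1.82 (SE 1.95, adjusted p = 0.704 by limma) in subclinical and 2.69 (SE 1.95, adjusted p = 0.846 by limma) in clinical cows, where single libraries at 0 weigh heavily; edgeR gave 1.01 and 0.48. The RefSeq gene MIR6529A overlaps the protein-coding gene GSK3B, a kinase of Wnt and insulin signalling, and another miRNA gene, MIR6529B, whose reads may not be told apart from it.

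miR-11976, miR-11972, miR-2887 and miR-11975 had higher mean signals in healthy cows than in either mastitis group, and none passed the test. For miR-11976, healthy cows had a median of 1947 (0 to 7393), subclinical cows 1007 (64.4 to 2135) and clinical cows 1095 (0 to 2279). For miR-11972 the medians were 1672 (481 to 7393), 744 (0 to 1869) and 983 (0 to 2662). The healthy maxima of both lay above every mastitis cow, while the lower healthy cows lay inside the mastitis ranges. MIR11976 overlaps PATZ1, a zinc finger regulator of transcription, and MIR11972 overlaps BIRC6, an inhibitor of apoptosis.

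For miR-2887 the median was 2396 in healthy (0 to 3964), 666 in subclinical (0 to 1869) and 748 in clinical cows (415 to 3256). Of the 7 healthy cows, 6 were above every subclinical cow, and healthy 2 was at 0. For miR-11975 the medians were 751 (0 to 5436), 328 (129 to 789) and 415 (0 to 1628), with healthy 5 and healthy 7 at 5436 and 4685 and 3 healthy cows at 0. The log2 change from healthy to subclinical cows was −1.76 for miR-2887 (SE 1.64, adjusted p = 0.657 by limma; edgeR −0.96). For miR-11975 it was 1.98 by limma (SE 2.29, adjusted p = 0.732) and −1.50 by edgeR, so that the 2 tests gave opposite signs. Libraries at 0 weigh heavily on the log2(signal + 1) scale of limma, while edgeR works on the reads. The part of this in the opposite signs was not tested. MIR11975 overlaps MIA3, which helps large cargo such as collagen leave the endoplasmic reticulum.

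Healthy 5 and healthy 7 carried much of these healthy levels. They held 49.6% of the known reads of healthy cows, but 86.1% of the healthy reads of miR-11976, 91.1% of those of miR-11975, 74.6% of those of miR-11972, 66.1% of those of miR-2887 and 84.4% of those of miR-6529a. All healthy reads of miR-11985 and miR-12030 came from these 2 cows. Of the 15 tested miRNAs of the set that were read in healthy cows, 14 were above 49.6%, the exception being miR-3613b at 33.3%; miR-10174-3p stood close to that share, at 51.0%. The like count was not made for the lower-numbered miRNAs, so it does not show a trait particular to the set. Without the 2 cows, mean healthy signals were 1390 ± 1177 for miR-11976, 1597 ± 908 for miR-11972, 1911 ± 1138 for miR-2887 and 535 ± 842 for miR-11975 (SD, n = 5 each), against 3079 ± 3040, 2454 ± 2302, 2397 ± 1263 and 1828 ± 2323 with them (SD, n = 7).

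These 2 libraries were also the deepest of the healthy group, with 4763 and 5706 known reads. Neutrophil and platelet miRNAs took 4.26% and 3.66% of known reads there, against 1.46 to 3.65% in the other healthy cows. Liver miRNAs took 0.357% and 0.946%, against 0 to 0.091%, and miR-126 took 15% and 12.6%, against 18.5 to 28.8%. The part of these differences in the levels of the high-numbered miRNAs was not tested.

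**Figure D3:**
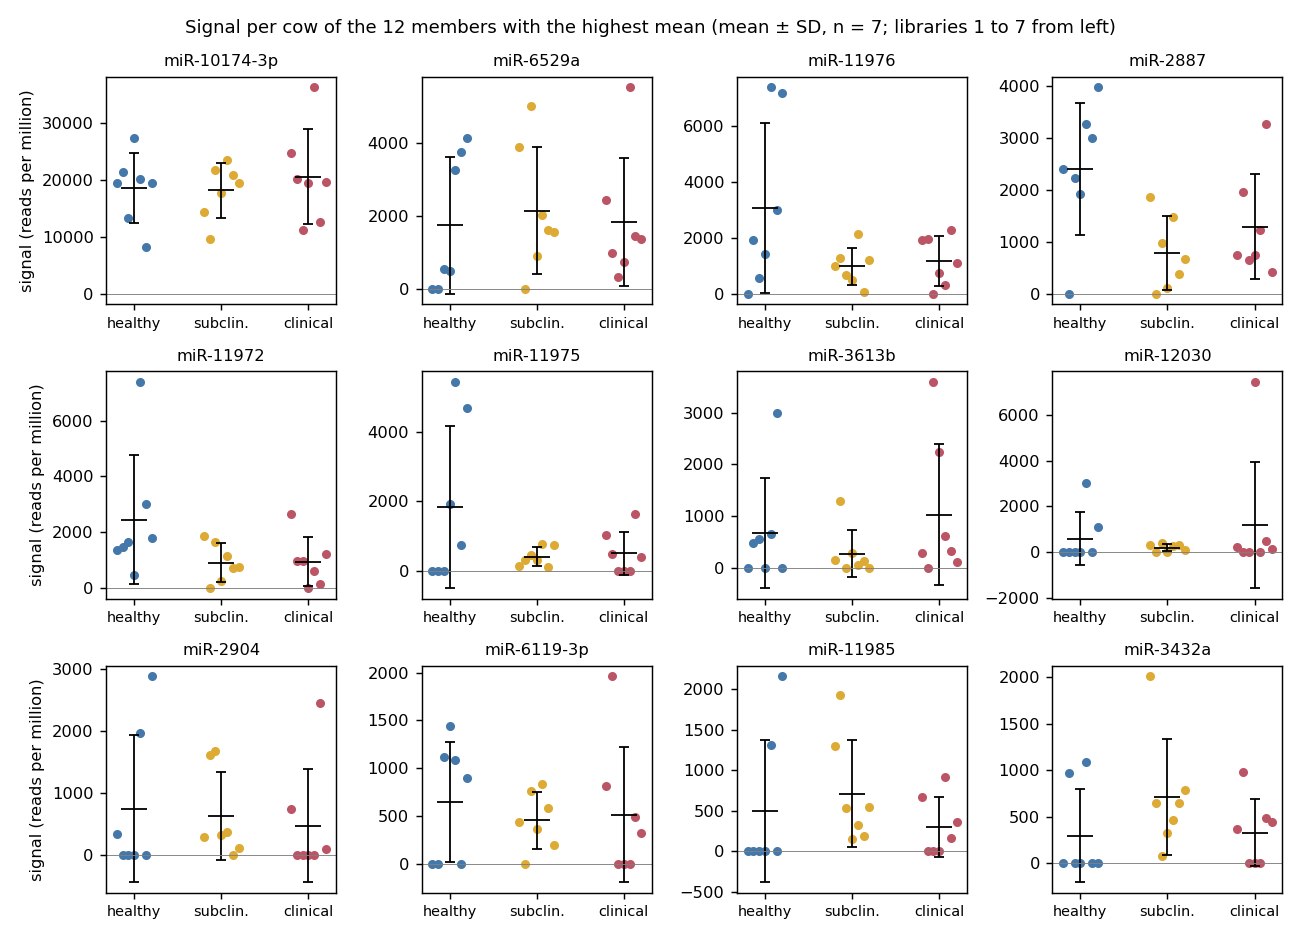
Signal (reads per 1000000, vertical axis) of the 12 high-numbered miRNAs with the highest mean, one point per cow and group, with the mean and SD of 7 cows. miR-10174-3p lies between 8258 and 36207 in every cow, while the others have cows at 0 or single high cows such as healthy 5 and healthy 7 for miR-11975 and clinical 4 for miR-12030.

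miR-3613b had a median of 487 in healthy (0 to 3003), 129 in subclinical (0 to 1284) and 326 in clinical cows (0 to 3603). miR-12030 had medians of 0 (0 to 3044), 278 (0 to 380) and 118 (0 to 7479). It had 20 reads in each group, which are 0.0948% of healthy, 0.0172% of subclinical and 0.0309% of clinical known reads. All 20 healthy reads were in healthy 5 and healthy 7. A single clinical cow, clinical 4, which had the second fewest known reads of all libraries, was at 7479. MIR3613B overlaps a second miRNA gene, MIR3613A, and reads of these near-identically named copies are uncertain.

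miR-2904 had medians of 0 (0 to 2883), 328 (0 to 1673) and 0 (0 to 2442) in healthy, subclinical and clinical cows. miR-6119-3p had medians of 901 (0 to 1444), 431 (0 to 835) and 326 (0 to 1966). Both were read in 6 of 7 subclinical cows, and in 3 or 4 cows of each other group. MIR6119 overlaps RPL39, a gene of the large ribosomal subunit, and both of its arms were read, with 99 reads of 3p and 55 of 5p (64.3% 3p, 95% exact binomial interval 56.2 to 71.8%).

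miR-3432a and miR-11985 were read in every subclinical cow. miR-3432a had a median of 642 in subclinical cows (76.0 to 2013), of 0 in healthy cows (0 to 1087, read in 2 of 7) and of 370 in clinical cows (0 to 983, read in 4 of 7). miR-11985 had a median of 532 in subclinical cows (146 to 1926), of 0 in healthy cows (0 to 2162, read in 2 of 7) and of 163 in clinical cows (0 to 921, read in 4 of 7). The healthy cows with reads lay inside the subclinical range for miR-3432a, and for miR-11985 healthy 7 lay above it. MIR3432A has 2 loci in RefSeq, in TP53BP1, a DNA repair gene, and in HIP1, an endocytosis gene, and MIR11985 overlaps PARVB, a focal adhesion gene.

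In the comparison of subclinical with healthy cows, 0 of the 17 tested miRNAs of the set passed an adjusted p of 0.05 by limma, where 2.01% of all 598 tested miRNAs were called (12). edgeR called 0 of the 17, where it called 1.34% of all (8), and DESeq2 called 0, where it called 1.67% (10). DESeq2 gave no adjusted p for most of the 17, among them miR-6123, miR-3432a, miR-11985 and miR-2419-5p. It could not call these, so its 0 covers the others alone. At an unadjusted p under 0.05 there were 3 of the 17 by limma and 1 by edgeR. At these shares a set of 17 holds few calls or none, and the 5 miRNAs kept out by name are among the high-numbered ones already known to move, so the count of 0 is partly set by the choice of members. Of 100 tested lower-numbered miRNAs, 1 was called by limma (lower) and 1 by edgeR (higher).

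The median log2 change of the 17 by limma was 1.98, beside 0.26 for all tested miRNAs and 2.71 for the lower-numbered ones. By edgeR it was 0.13, beside 0.22 for all tested miRNAs and 0.69 for the lower-numbered ones. Without the 2 miRNAs that had no healthy read, the median was 1.83 by limma and −0.1 by edgeR. Healthy libraries were the shallowest on average and rare miRNAs were often at 0 in them; the part of depth in the gap between the tests was not tested.

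The smallest limma p of the set in this comparison belonged to miR-6123. It was read in 0 of 7 healthy, 5 of 7 subclinical and 2 of 7 clinical cows, with signals up to 963 in subclinical 2 and up to 148 in clinical 7. The log2 change was 5.46 (SE 1.55, adjusted p = 0.0764 by limma), and 3.74 by edgeR (adjusted p = 0.22). Its 13 subclinical reads are 0.0112% of the known reads of that group, and 0 of 21103 healthy reads allows a share of up to 0.0142%, so that the summed reads alone do not tell the groups apart at this depth. miR-6123 had a read in just 7 libraries, all from cows with mastitis, and so it met the filter through those groups. Leaving out any of these 7 cows took it out of the test. The adjusted p by limma was 0.0348 without subclinical 3 and 0.0282 without subclinical 5, the 2 subclinical cows at 0, and these values lend no support to a difference.

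For miR-3432a the log2 change was 6.10 (SE 2.08, adjusted p = 0.159 by limma; edgeR 1.79). For miR-11985 it was 5.88 (SE 2.12, adjusted p = 0.172 by limma; edgeR 0.66). The reads of miR-11985 pointed the other way, at 0.0853% of healthy and 0.0431% of subclinical known reads, and its 18 healthy reads were all in healthy 5 and healthy 7. Its adjusted p by limma fell to 0.0378 without healthy 7 and to 0.00391 without both cows (log2 change 8.94). Leaving out both was chosen after seeing the data and left every healthy cow at 0. These values come from taking out the healthy cows with reads and lend no support to a difference.

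**Figure D4:**
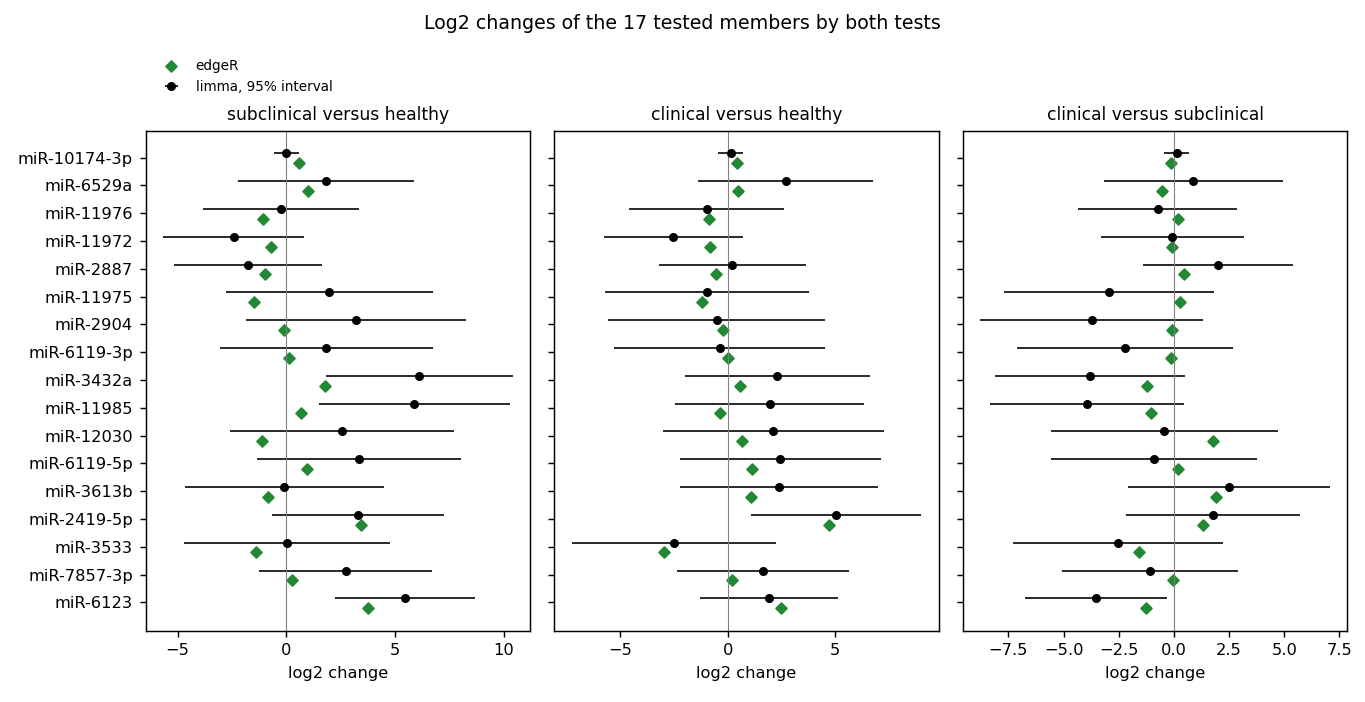
Log2 changes of the 17 tested high-numbered miRNAs in the 3 comparisons (horizontal axis), by limma with its 95% interval (black) and by edgeR (green), ordered by reads. miR-10174-3p has the narrowest interval, −0.56 to 0.57 for subclinical against healthy cows, and for rare miRNAs such as miR-11985 the limma value (5.88) and the edgeR value (0.66) lie far apart.

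Between clinical and healthy cows, 0 of the 17 passed by limma, where 0% of the 598 were called, and 0 passed by edgeR, where 0% were called. DESeq2 called 0 of the 17, where it called 1.34% of all (8). It gave no adjusted p for some of the 17, among them miR-2419-5p and miR-6123, and could not call these. At an unadjusted p under 0.05 there was 1 of the 17 by limma and 2 by edgeR. The median log2 change of the 17 by limma was 1.64, beside −0.12 for all tested miRNAs and 0.25 for the lower-numbered ones. By edgeR it was 0.22, beside 0.23 for the lower-numbered ones, and by DESeq2 it was −0.14. Without the 2 miRNAs that had no healthy read, the median was 0.22 by limma and 0.01 by edgeR. With these 2 set to their bound, or left out where they had none, it was 0.77 by limma and 0.11 by edgeR.

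miR-2419-5p had the smallest p here. It was read in 0 of 7 healthy, 3 of 7 subclinical and 4 of 7 clinical cows, with a clinical median of 73.9 and a maximum of 1227 in clinical 5. These 7 libraries were all from cows with mastitis, so miR-2419-5p met the filter through those groups. Leaving out any of the 7 cows with a read took it out of the test. The log2 change was 5.05 (SE 1.91, adjusted p = 0.533 by limma), and 4.73 by edgeR (adjusted p = 0.407). Its 23 clinical reads are 0.0355% of known reads, at least 2.50-fold higher than the 0.0142% that 0 healthy reads, over the whole group, allow. In clinical 7 alone there were 16 of the 23 clinical reads, and without that cow the ratio was 1.63-fold. The reads are summed over cows and miR-2419-5p was picked by its p, so these ratios lend no support to a difference. In subclinical cows its 15 reads were 0.0129% of known reads, under the healthy limit.

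The log2 changes of the next 3 by p were −2.52 for miR-11972 (SE 1.56, adjusted p = 0.846 by limma; edgeR −0.82), 2.69 for miR-6529a as above and 1.92 for miR-6123 (SE 1.55, adjusted p = 0.876 by limma; edgeR 2.50). Values of miR-11972 in 7 of 7 healthy cows were above 0, as they were in 6 of 7 clinical cows. Both comparisons with healthy cows use the same 7 healthy libraries, so their values are not independent of each other.

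From subclinical to clinical cows, 0 of the 17 passed by limma, where 4.01% of the 598 were called (24), 0 by edgeR, where 5.85% were called (35), and 0 by DESeq2, where 6.19% were called (37). DESeq2 gave no adjusted p for some of the 17, among them miR-6123 and miR-2419-5p, and could not call these. At an unadjusted p under 0.05 there was 1 of the 17 by limma and 0 by edgeR. Lower-numbered miRNAs had 1 call by limma and 6 by edgeR, all of them lower in clinical cows, out of 100 tested. The median log2 change of the 17 by limma was −0.89, beside −0.37 for all tested miRNAs and −1.76 for the lower-numbered ones. By edgeR it was −0.09, beside −0.13 for all tested miRNAs and −0.52 for the lower-numbered ones.

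The 4 with the smallest p were miR-6123, miR-11985, miR-3432a and miR-2904, all with values below 0. The log2 change was −3.54 for miR-6123 (SE 1.55, adjusted p = 0.291 by limma; edgeR −1.25) and −3.93 for miR-11985 (SE 2.12, adjusted p = 0.469 by limma; edgeR −1.03). It was −3.79 for miR-3432a (SE 2.08, adjusted p = 0.471 by limma; edgeR −1.21) and −3.72 for miR-2904 (SE 2.44, adjusted p = 0.574 by limma; edgeR −0.11). For miR-2904 the reads per group were nearly the same share, at 0.0422% of subclinical and 0.0432% of clinical known reads, while 6 of 7 subclinical and 3 of 7 clinical cows had a read.

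How many of the 68 could be seen followed the depth of the library. On average 10.1 ± 4.0 of the 68 were read in a healthy cow (5 to 16), 22.4 ± 5.9 in a subclinical cow (11 to 28) and 14.9 ± 5.9 in a clinical cow (10 to 25; SD, n = 7 each). After thinning each library to 1371 known reads, the expected numbers were 8.61 ± 3.25, 8.83 ± 1.32 and 9.06 ± 1.51. The thinned values of the groups differed by less than their SDs. Healthy 5 and healthy 7 had the 2 highest thinned numbers of all libraries, at 13.4 and 12.4. Lower-numbered miRNAs, thinned alike, numbered 47.9, 56.8 and 48.5 per cow. For these too, healthy 5 and healthy 7 were the 2 highest healthy libraries, at 55.4 and 65.2, followed by healthy 4 at 53.7. As a share of the thinned lower-numbered count, that of the 68 was 24.3% in healthy 5 and 18.98% in healthy 7. The healthy mean of this share was 17.7 ± 4.4% (SD, n = 7), so healthy 7 lay near the mean and healthy 5 above it.

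**Figure D5:**
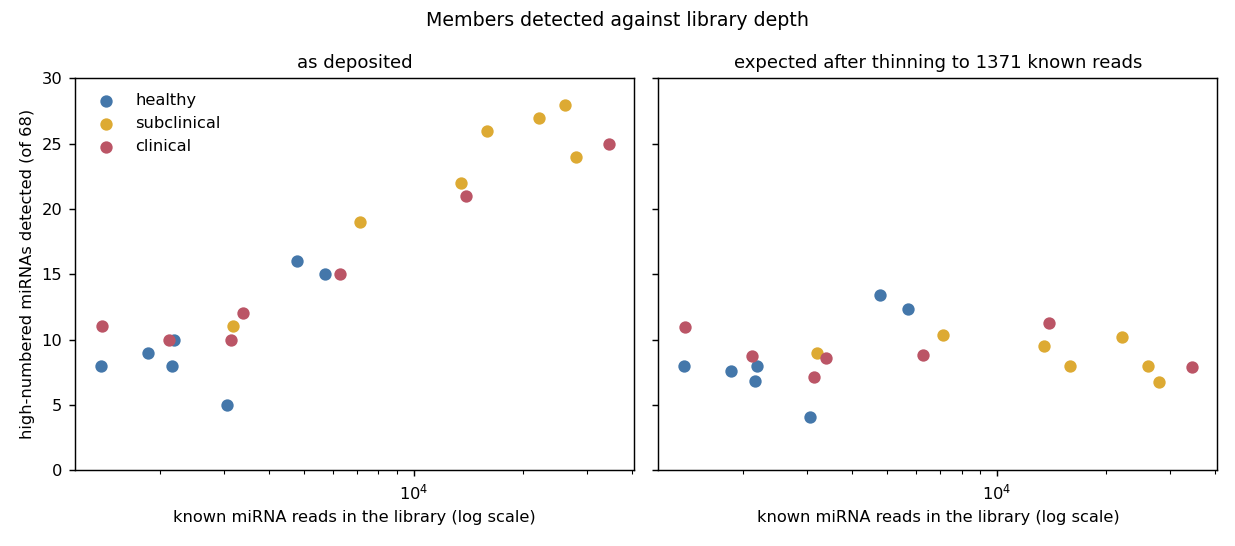
Number of the 68 high-numbered miRNAs read in a library against its known miRNA reads (log scale), as deposited (left) and as computed for 1371 reads drawn from each library (right), coloured by group. At full depth the counts rise with depth from 5 to 28; after thinning the groups overlap, with means of 8.61, 8.83 and 9.06.

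Over whole groups, of the 68, 26 were read in any healthy cow, 56 in any subclinical cow and 39 in any clinical cow. When the reads of the mastitis groups were thinned to the 21103 of the healthy group, 33.3 and 29.8 were expected. Both are above the 26 of the healthy group, but the reads are summed over cows and no spread was computed. Clinical 7 alone held 34565 of the 64783 known reads of clinical cows. A group difference in these numbers was not tested. The lower-numbered miRNAs, thinned alike, numbered 130, 151 and 134 in the healthy, subclinical and clinical group. Members read in only 1 cow numbered 3 in healthy, 20 in subclinical and 9 in clinical cows, and subclinical libraries were the deepest on average.

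The other 51 of the 68 failed the filter and held 242 reads together, 3.98% of the reads of the set. miR-11973 was the most read of them, with 23 reads of which 65.2% were in subclinical 3. Of all 68, 32 were read in a single library (47.1%), against 43 of 216 lower-numbered miRNAs (19.9%). 16 of the 68 had 1 read in all and another 17 had 2 or 3 reads. The median miRNA of the set had 4.5 reads in 2 libraries, and the median lower-numbered one had 18.5 reads in 6 libraries. Values of 14 of the 68 were equal to those of another of the 68 in every library, as happens where both have 1 or 2 reads in 1 library, and such values are not independent.

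Levels were uneven along the numbers. The 33 miRNAs numbered below 3000 had 442 reads, and 3 of them were tested. The 16 numbered from 3000 to under 10000 had 811 reads, and 8 of them were tested. The 19 numbered 10000 or more had 4825 reads, 79.4% of the reads of the set, of which miR-10174-3p supplied 3913. Of the miR-2284 and miR-2285 family, a large family described in cattle, 9 members were listed, 0 were tested, and they had 15 reads together with at most 3 each; 8 of the 9 were read in a single library.

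RefSeq (assembly ARS-UCD2.0, not the build of the deposited table) held a gene for 64 of the 68 by name. No gene was matched for miR-10174-3p, miR-10174-5p, miR-10225a and miR-2904. A protein-coding gene overlapped 47 of the 64 (73.4%), and 128 of 216 lower-numbered miRNAs (59.3%); strand was not considered, so the overlap does not say that the miRNA is made from that gene's transcript. For 11 of the 64 no gene overlapped at any locus. Another miRNA gene overlapped 6 of them, for instance MIR214 for miR-3120. Of the 17 tested, 15 were matched and 10 of these lay in a protein-coding gene, among them miR-3533 in ACTG1, a cytoskeletal actin.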

How the data were processed

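The authors deposited 1 table of 21 serum EV libraries (7 per group), with 298 known and 549 numbered rows; its values are a signal in reads per 1000000, scaled by the authors separately for known and numbered rows. Per the labels' protocols, EV RNA came from the miRNeasy Mini kit and libraries from the TruSeq small RNA kit; the submitters' processing notes name Bowtie, edgeR and the build ARS-UCD1.2, with no version. The isolation of EVs and the counting of reads are not given in the sources used here. Columns were tied to cows by the labels; those of the replicate 7 cows carry another number in the table.

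All 10115 of 10115 deposited values above 0 (100%) came out as whole reads, within 0.05 reads, when divided by the value of 1 read in their library and block, so reads were recovered. The main test was limma 3.58.1 with an intensity trend on log2(signal + 1), two-sided, in 1 fit of 21 libraries with 18 residual degrees of freedom, on the 598 rows reaching a signal of 1 in 7 or more libraries, with Benjamini-Hochberg adjustment over all of them and a threshold of 0.05. Fold changes are on that log2 scale, on which libraries at 0 weigh heavily. edgeR 4.0.16 (quasi-likelihood test) and DESeq2 1.42.0 were run on the recovered reads, and edgeR called 8, 0 and 35 miRNAs in the order of the report. Scripts were tested on simulated data. R was 4.3.3, Python 3.11.15, numpy 2.4.6, pandas 2.3.3, scipy 1.17.1 and matplotlib 3.10.9.

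Intervals and limits of 0 (3 reads over a group's known reads) cover counting error only. Named are the 12 miRNAs of the set with the highest mean signal, those called by limma or edgeR (none), and the 4 with the smallest limma p per comparison; the few others named were chosen after their values were seen. The members and lists were chosen with earlier results of these data known. Replicates are separate cows. Alternatives were other pseudocounts, filters, scalings and tests, the replicate numbers as a block and libraries left out.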

Additional observations from a re-analysis of the deposited data

Results flagged for a closer look

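In 10 of 55 groups tested, 1 cow lay far from the other cows of its group. The nominal rate of such a gap is about 1 group in 20 for normal values, and the rate for values of few reads with many at 0 was not measured. Among healthy cows, healthy 5 had a signal of 7393 for miR-11972 (next cow 3003) and of 3044 for miR-12030 (next 1081), and healthy 6 had 3003 for miR-3613b (next 652). Among subclinical cows, subclinical 2 had 1284 for miR-3613b (next 291) and 963 for miR-6123 (next 146), and subclinical 1 had 2013 for miR-3432a (next 783). Among clinical cows, clinical 5 had 5523 for miR-6529a (next 2440), clinical 4 had 7479 for miR-12030 (next 488), clinical 6 had 2442 for miR-2904 (next 739) and clinical 2 had 1966 for miR-6119-3p (next 813). Healthy 6 and clinical 4 had the fewest known reads of all libraries, at 1371 and 1386, so 1 read was worth 750.8 and 747.9 units of signal there; the value of healthy 6 for miR-3613b is 4 reads and that of clinical 4 for miR-12030 is 10 reads. The part of depth in these values was not tested.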

How the results depend on the processing

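Few reads limit the set: 51 of the 68 miRNAs did not pass the filter. DESeq2 gave no adjusted p for part of the tested ones, so its counts for the set cover the others alone. The count of miRNAs of the set called stayed 0 in all 3 comparisons by limma, edgeR and DESeq2 and under all alternatives, except that it was 1 for subclinical against healthy cows without healthy 7, without subclinical 3 or 5, and without healthy 5 and 7 (chosen after seeing the data), so it ran from 0 to 1 with 1 cow left out. Over all 598 tested miRNAs the subclinical against healthy count of 12 became 2 with a signal needed in 14 libraries, 6 with median-ratio scaling, 6 with edgeR on 1 scale, 2 by limma on known rows alone, 0 without libraries under 2000 known reads, 23 without the 3 cows whose column number differs and 34 without healthy 5 and 7; with 1 cow left out it ran from 6 to 26. The clinical against healthy count of 0 became 8 by DESeq2 and 2 by edgeR on known rows without a filter, and 0 to 0 with 1 cow left out. The clinical against subclinical count of 24 became 6 with the 14-library filter, 37 by DESeq2, 9 by edgeR on known rows, 0 by limma on known rows and 14 to 26 with 1 cow left out.

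The log2 change of miR-10174-3p, near 0 in each comparison, changed sign without the low-depth libraries (−0.29, adjusted p = 0.709, and −0.16, adjusted p = 0.94, against healthy cows), and from subclinical to clinical cows with median-ratio scaling (−0.02), edgeR (−0.12), edgeR on known rows (−0.13) and edgeR on 1 scale (−0.97); with 1 cow left out it ran from −0.18 to 0.15, −0.05 to 0.27 and −0.02 to 0.26. With 1 cow left out, the mean share of known reads ran from 3.03 to 3.63% (healthy), 2.68 to 2.93% (subclinical) and 2.98 to 3.43% (clinical), and the miRNAs read per cow from 9.17 to 11, 21.5 to 24.3 and 13.2 to 15.7. In subclinical cows the latter was 8.83 after thinning and 13.3 when 3 reads were needed. Replicate numbers mark different cows, and correlations of the deviations of same-numbered libraries ran from −0.123 to 0.315, with the best match at the own number in 4 of 21 cases, so the numbers were not taken to pair the cows; a replicate block is a check: it called 8, 0 and 23 miRNAs of all tested and 0 of the set. The cause of these changes was not tested.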
